A study of Saccharomyces cerevisiae with 24 samples.

Results

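The expression profile of yeast cells deleted for SIP1, SIP2 and GAL83 (3 arrays, the triple strain) was set against that of cells deleted for GAL83 alone (3 arrays, the gal83 strain). The samples were chosen by their titles and make up 6 of the 24 arrays of the study. The comparison asks what SIP1 and SIP2 together still do in cells that have already lost GAL83. The study covered a reference strain labelled wild type, a strain with each single deletion, a strain with each pair of deletions and the triple strain, with 3 arrays of biological replicates each. Each Saccharomyces cerevisiae culture grew with air in a 1 L bioreactor fed 10 g/L glucose (30 °C, pH 5.0, dilution rate 0.1 per h) and was harvested at steady state. The strain background, the ploidy and the number of clones per strain were not given in the sources used here. Levels are the deposited log2 array intensities, 1 probe set per gene, and the number of arrays limits their precision. A change is the triple mean minus the gal83 mean in log2 units, ± the standard error from a limma fit to all 24 arrays, and a gene is said to have risen or fallen when its adjusted p was under 0.05.

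Snf1 is the yeast AMP-activated protein kinase, which becomes active when glucose runs low and turns on genes for other carbon sources. The kinase works as a complex of the catalytic subunit Snf1, the activating subunit Snf4 and one of the β-subunits Sip1, Sip2 and Gal83, which hold the complex together. The β-subunits also place the kinase in the cell, Gal83 in the nucleus, Sip1 at the vacuole and Sip2 in the cytoplasm when glucose is low. Known targets include the activators Cat8, Sip4 and Adr1 and the repressor Mig1. Gal83 and Sip2 carry a glycogen-binding domain.

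In all 6 arrays the deleted genes were at background. SIP1 stood at 10.96, 10.97 and 10.79 in the gal83 arrays and at 2.03 in each triple array. SIP2 stood at 9.48, 9.72 and 9.49 in the gal83 arrays and at 2.02, 2.02 and 2.03 in the triple arrays, while GAL83 lay between 2.07 and 2.08 in all 6. A level near 2 is the floor of these values, and the size of a change that starts or ends there depends on it. SNF1 itself, at 12.61, 12.57 and 12.54 against 12.46, 12.40 and 12.48, differed by -0.12 ± 0.068 (adjusted p = 0.156), and the same difference passed without 3 doubted arrays of other strains (adjusted p = 0.049). SNF4 differed by 0.05 ± 0.088 (adjusted p = 0.71). The doubted arrays are those labelled sip1 gal83 replicate 2, which gave 9.72 for GAL83, sip1 sip2 replicate 3, which gave 6.0 for SIP2, and sip2 gal83 replicate 1. They bear on the spread shared by all strains, and on the side comparisons below. Array medians were 10.92 to 10.975 in the gal83 strain and 10.991 to 11.007 in the triple strain, and arrays correlated at 0.9951 to 0.9987 within either strain and at 0.9748 to 0.9792 between them, across 5449 genes.

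Removing SIP1 and SIP2 from gal83 cells was accompanied by a broad change in expression. Most genes of early meiosis stood above every other strain, and genes for amino acid synthesis, methionine and phosphate uptake, with the hexose transporter genes HXT1, HXT3 and HXT4, were also among those that rose. Stress genes, glycogen genes and genes of sucrose and maltose use were among those that fell. Of 5449 genes, 2300 were called (42.2%), 1431 of them higher in the triple strain (26.3%) and 869 lower (15.9%). With each array's median subtracted, 1205 were higher and 1093 lower, so the balance of the 2 directions depends on the scaling, with a median change over all genes of 0.0349. For 1924 genes (35.3%) all triple arrays lay above all gal83 arrays, and for 1466 (26.9%) all lay below. Most changes were small. Of the called genes 1423 changed by under 0.5, and 255 by over 1, of which 163 were higher and 92 lower. The plot of list shares sets each gene list beside those background shares.

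**Figure D1:**
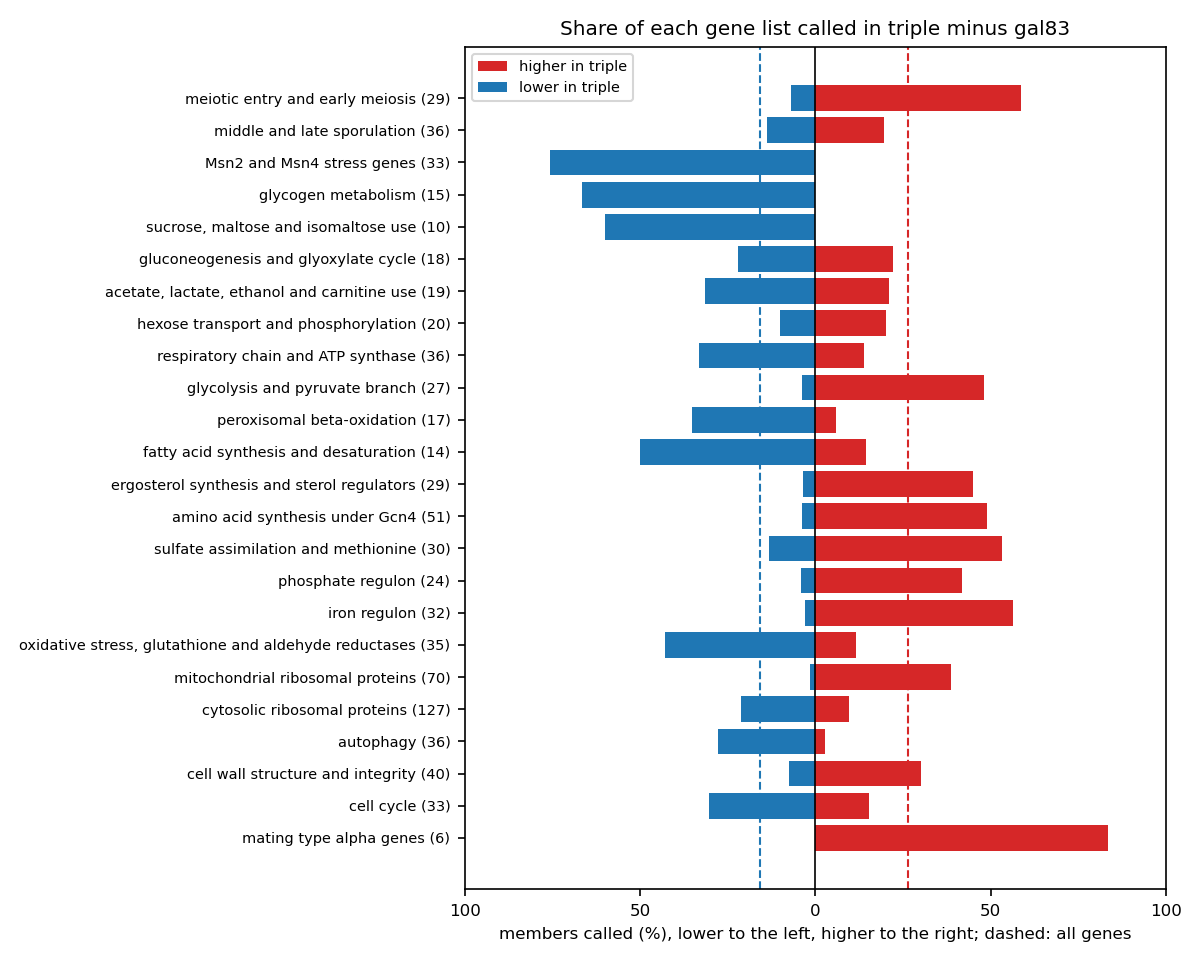
Percent of the measured members of 24 gene lists called higher (right, red) or lower (left, blue) in the triple strain than in the gal83 strain, with the number of measured members in parentheses and the share over all genes as dashed lines (26.3% higher, 15.9% lower). Of the early meiosis list 17 of 29 genes lie on the higher side, and of the Msn2 and Msn4 stress list 25 of 33 lie on the lower side.

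The early meiotic programme stood out among the gene lists. In haploid or well-fed cells these genes are kept silent, in part by Ume6 and its partner repressors, until the activator Ime1 and the kinase Ime2 turn them on. Of 29 measured genes of meiotic entry and early meiosis, 17 rose, 2 fell and 10 did not pass, with a median change of 1.67 against 0.0349 over all genes. Each of the 17 rose by 1.33 to 5.90, and 15 stood above the other 21 arrays in all 3 triple arrays. That held for 5.78% of all genes, 21.3% of all genes that rose and 61.3% of those that rose by over 1. Averaged over the list, the triple arrays stood at 7.67, 7.58 and 6.81 and the gal83 arrays at 5.62, 5.61 and 5.56. The arrays of the other 7 strains, gal83 included, lay between 5.47 and 5.80 and so did not overlap the triple arrays. In bulk RNA, few cells with much transcript and many cells with little cannot be told apart.

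REC104, needed for the DNA breaks that start meiotic recombination, stood at 4.01, 3.77 and 3.46 in the gal83 arrays and at 9.81, 9.63 and 9.50 in the triple arrays, a rise of 5.90 ± 0.34 (adjusted p = 1.03e-09). Its partner REC102 stood at 2.02 in each gal83 array and at 7.06, 6.74 and 5.29 in the triple arrays, a rise of 4.35 ± 0.26 (adjusted p = 1.35e-09). Neither gene's groups overlapped, and REC102 started from the floor. The kinase gene IME2 went from 5.41, 5.41 and 5.40 to 10.56, 10.11 and 9.60, a rise of 4.68 ± 0.34 (adjusted p = 1.72e-08). SAE3, whose product helps load the meiotic recombinase Dmc1, went from 2.84, 2.84 and 3.10 to 8.04, 8.03 and 6.94, a rise of 4.75 ± 0.24 (adjusted p = 1.74e-10). For both genes every triple array lay above every array of the other strains.

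Further members were named after their values were seen. DMC1, the meiotic recombinase gene, stood at 6.29, 6.63 and 6.59 in gal83 and at 10.07, 10.02 and 9.17 in the triple arrays, a rise of 3.25 ± 0.27 (adjusted p = 6.98e-08). SPO11, encoding the enzyme that cuts the DNA, went from 2.14, 2.15 and 2.16 to 6.4, 6.48 and 4.61, and MEK1, a checkpoint kinase gene, from 2.08 in each array to 7.53, 7.21 and 3.16. The third triple array was the lowest of the 3 for 16 of the 17 genes that rose, and 9 of the 17 had a gal83 mean under 3, near the floor. When all levels under 9.746 were raised to that value, 3 of the list rose and 1 fell. UME6, the repressor gene of this programme, was also higher, at 11.53, 11.62 and 11.39 against 10.19, 9.96 and 9.92, a rise of 1.49 ± 0.15 (adjusted p = 1.01e-06). Its 3 triple arrays stood above all other arrays, with a reference mean of 10.87.

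The activator gene above these did not move with them. IME1 stood at 8.12, 8.40 and 8.19 in gal83 and at 8.04, 8.07 and 7.71 in the triple arrays, a difference of -0.30 ± 0.19 (adjusted p = 0.22). RME1, which represses IME1, fell by 0.38 ± 0.096 (adjusted p = 0.00407). RIM11, a kinase gene of the Ime1 pathway, fell by 0.24 ± 0.067 (adjusted p = 0.00791), and SPO22, a gene of meiotic chromosome pairing, fell by 0.54 ± 0.13 (adjusted p = 0.00371). The genes that did not pass include RIM4, ZIP2, REC107, REC114, MSH4 and MSH5. The heat map of meiotic levels shows the block of genes with their highest levels in the triple columns, beside rows such as IME1 that did not pass.

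**Figure D2:**
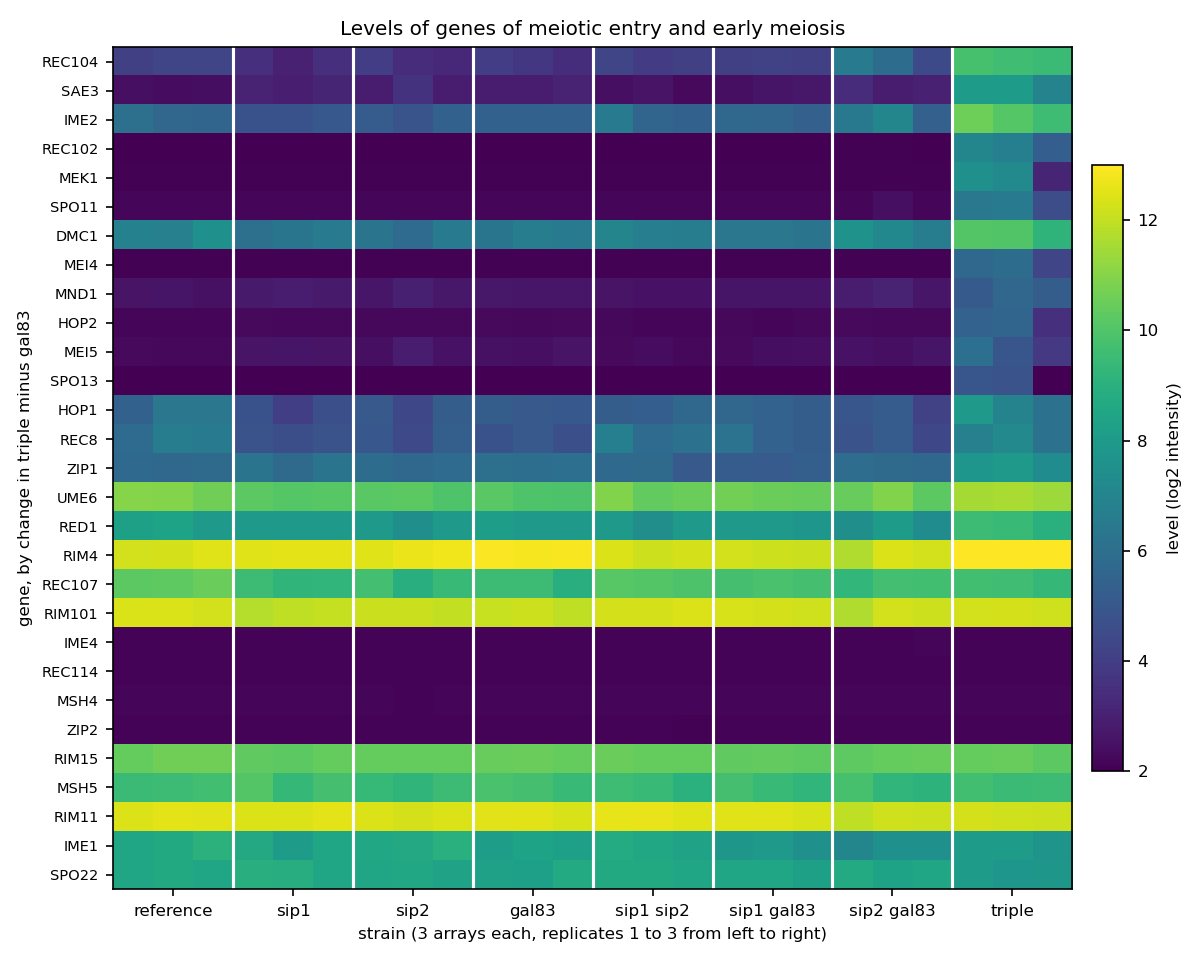
Log2 level of 29 genes of meiotic entry and early meiosis (rows) in the 24 arrays (columns, grouped by strain). The 3 triple columns are brighter than the other 21 for 15 of the 17 genes that rose, and the third triple column is the dimmest of the 3 for 16 of them.

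Later stages of sporulation showed no such block. Of 36 genes of middle and late sporulation 7 rose and 5 fell, beside 26.3% and 15.9% of all genes, with a median of -0.00202. Their mean level was 5.16 to 5.36 in the triple arrays, 5.22 to 5.25 in the gal83 arrays and 5.14 to 5.48 over all other arrays. SPS100, a spore wall gene, fell by 2.19 ± 0.25 (adjusted p = 3.07e-06), from 13.49, 13.53 and 12.67 to between 10.93 and 11.20. SPS18 rose by 1.37 and OSW2, a spore wall gene, by 0.89.

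Other signs of cell type were checked with mating genes. The mean level of the alpha-specific list was 13.08 to 13.15 in the triple arrays and 12.37 to 12.81 in the other 21, and that of the a-specific list was 5.30 to 5.71 in the triple arrays and 5.59 to 6.71 in the others. Of 6 measured alpha-specific genes 5 rose, against 26.3% of all genes, and 0 fell. Each of the 5 had all triple arrays above the other 21, against 5.78% of all genes and 21.3% of all genes that rose. The pheromone gene MF(ALPHA)2 stood at 12.14, 12.30 and 12.52 in gal83 and at 13.66, 13.69 and 13.84 in the triple arrays, a rise of 1.41 ± 0.22 (adjusted p = 8.16e-05). The agglutinin gene SAG1 rose by 0.77 and the a-factor receptor gene STE3 by 0.45. Of 8 a-specific genes 2 fell, among them STE2, the alpha-factor receptor gene, from 7.10, 6.99 and 7.38 to 5.77, 5.80 and 5.71 (-1.40 ± 0.30, adjusted p = 0.00128). Of 22 genes of mating and haploid cells 7 rose, led by PRM1 at 1.84 and FUS1 at 1.02, both of cell fusion, and 3 fell, led by PRM2 at -1.75, close to the 26.3% and 15.9% of all genes. Without triple replicate 3 the PRM2 change was -1.18 (adjusted p = 0.0551). The part of these mating genes in the meiotic result was not tested.

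Among genes with standard names, several outside the meiosis list changed as much. SLZ1, whose product belongs to the RNA methylation complex of meiosis, stood at 1.93 in each gal83 array and at 11.25, 11.17 and 10.49 in the triple arrays, a rise of 9.04 ± 0.88 (adjusted p = 5.29e-07). It was at the floor in the other strains except the first and second sip2 gal83 arrays, at 7.69 and 7.11. PHO92, a reader of the same RNA mark, went from 2.38 in each gal83 array to 7.68, 7.94 and 6.55, a rise of 5.00 ± 0.21 (adjusted p = 1.71e-11). RNP1, encoding an RNA-binding protein, went from 2.14 in each to 8.57, 8.35 and 6.13, a rise of 5.55 ± 0.38 (adjusted p = 6.96e-09). Each of these genes was near the floor in gal83 and lowest in the third triple array among the 3.

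A second set of genes that rose most belongs to transport and metabolism. QDR2, a drug exporter gene, stood at 6.39, 6.87 and 6.64 in gal83 and at 10.78, 10.86 and 10.78 in the triple arrays, a rise of 4.17 ± 0.39 (adjusted p = 3.22e-07), with both double strains that lack GAL83 in between at 7.46 to 9.10. BAP3, a permease gene for branched-chain amino acids, rose by 4.78 ± 0.42 (adjusted p = 1.67e-07) from 2.09, 2.09 and 2.10 to 7.49, 7.48 and 5.66. COS12 of the subtelomeric COS family rose by 6.11 ± 0.36 (adjusted p = 1.16e-09) from 2.09 to 8.31, 7.98 and 8.31. In none of these genes did a triple array fall among the arrays of another strain. IRC7, a cysteine lyase gene, rose by 4.37 ± 0.55 (adjusted p = 8.87e-06) from 2.68, 2.55 and 3.27 to 6.86, 7.38 and 7.39, and SRT1, encoding a prenyltransferase, by 4.08 ± 0.35 (adjusted p = 1.09e-07).

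Apart from SIP1 and SIP2, the largest fall of all was in YDL218W, a gene without a standard name that was singled out after its values were seen. It stood at 13.35, 13.33 and 12.59 in gal83, at 8.47 to 11.06 in sip1 gal83, at 10.88 to 11.25 in sip2 gal83 and at 5.48, 5.75 and 5.55 in the triple arrays (-7.50 ± 0.44, adjusted p = 1.03e-09). The groups of the triple strain and of each double strain lay apart, with the double strains in between. The genes with standard names that fell most were of other kinds. ANS1, encoding a cell wall protein, stood at 8.32, 9.48 and 8.36 in gal83 and at 3.60, 3.36 and 2.85 in the triple arrays (-5.45 ± 0.41, adjusted p = 2.51e-08). It was kept in both double strains, at 8.13 to 9.45. The isomaltase gene IMA5 went from 9.65, 9.76 and 10.02 to 5.47, 5.46 and 5.14 (-4.45 ± 0.27, adjusted p = 1.35e-09). BIO5, a permease gene of biotin synthesis, fell by 4.33 ± 0.60 (adjusted p = 2.14e-05) and was low in the sip2 gal83 arrays too, at 4.59, 5.39 and 7.30. IZH4, a membrane protein gene of the zinc and sterol response, fell by 3.85 ± 0.36 (adjusted p = 3.51e-07). FAT3, a gene of fatty acid uptake, fell by 3.01 ± 0.23 (adjusted p = 3.81e-08), from 13.08, 13.14 and 12.92 to 10.22, 10.12 and 9.78, a fall between high levels far from the floor. The bZIP factor gene YAP6 fell by 2.18 ± 0.39 (adjusted p = 0.000226) and the arginine transporter gene ALP1 by 2.28 ± 0.44 (adjusted p = 0.000488).

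The carbon source genes are the best known Snf1 targets. Of 18 genes of gluconeogenesis and the glyoxylate cycle 4 rose, 4 fell and 10 did not pass, with a median of -0.0277, which is near the shares over all genes (26.3% higher, 15.9% lower) and so shows nothing about the list as a whole. MLS1 and ICL1, genes of the characteristic enzymes of the glyoxylate cycle, fell from levels that were already below the reference, while CIT2, a citrate synthase gene, rose by 0.29 (adjusted p = 0.0011). MLS1, malate synthase, stood at 9.25, 9.66 and 9.98 in gal83 and at 7.16, 6.55 and 6.89 in the triple arrays (-2.77 ± 0.55, adjusted p = 0.000651), with a reference mean of 12.98. ICL1, isocitrate lyase, went from 10.47, 10.25 and 10.53 to 8.36, 8.52 and 8.22 (-2.05 ± 0.45, adjusted p = 0.00144), with a reference mean of 12.92. Groups did not overlap in either, and neither change passed once levels under 9.746 were raised to it (adjusted p = 1.0 and 0.31). SFC1, a mitochondrial succinate and fumarate carrier gene, fell by 0.66 ± 0.15 (adjusted p = 0.00205) and the isocitrate dehydrogenase gene IDP2 by 0.57.

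The gluconeogenic enzyme genes FBP1, PCK1 and MDH2 did not pass. FBP1, fructose-1,6-bisphosphatase, stood at 8.02, 8.83 and 8.93 in gal83 and at 9.24, 9.05 and 8.92 in the triple arrays, a difference of 0.48 ± 0.46 (95% interval -0.49 to 1.45, adjusted p = 0.438). Its reference arrays were far higher, at 11.89, 12.10 and 12.33. PCK1, phosphoenolpyruvate carboxykinase, stood at 8.48, 8.31 and 8.66 against 8.72, 8.77 and 8.56, a difference of 0.20 ± 0.39 (95% interval -0.61 to 1.01, adjusted p = 0.732). The groups of both genes overlapped. MDH2, cytosolic malate dehydrogenase, differed by -0.22 ± 0.14 (adjusted p = 0.234). Without the 3 doubted arrays the same differences of FBP1 and MDH2 passed (adjusted p = 0.044 and 0.00311), and the sizes of the differences were the same. The plot of carbon genes shows the low triple points for MLS1 and ICL1 beside the overlapping ones for FBP1 and PCK1.

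**Figure D3:**
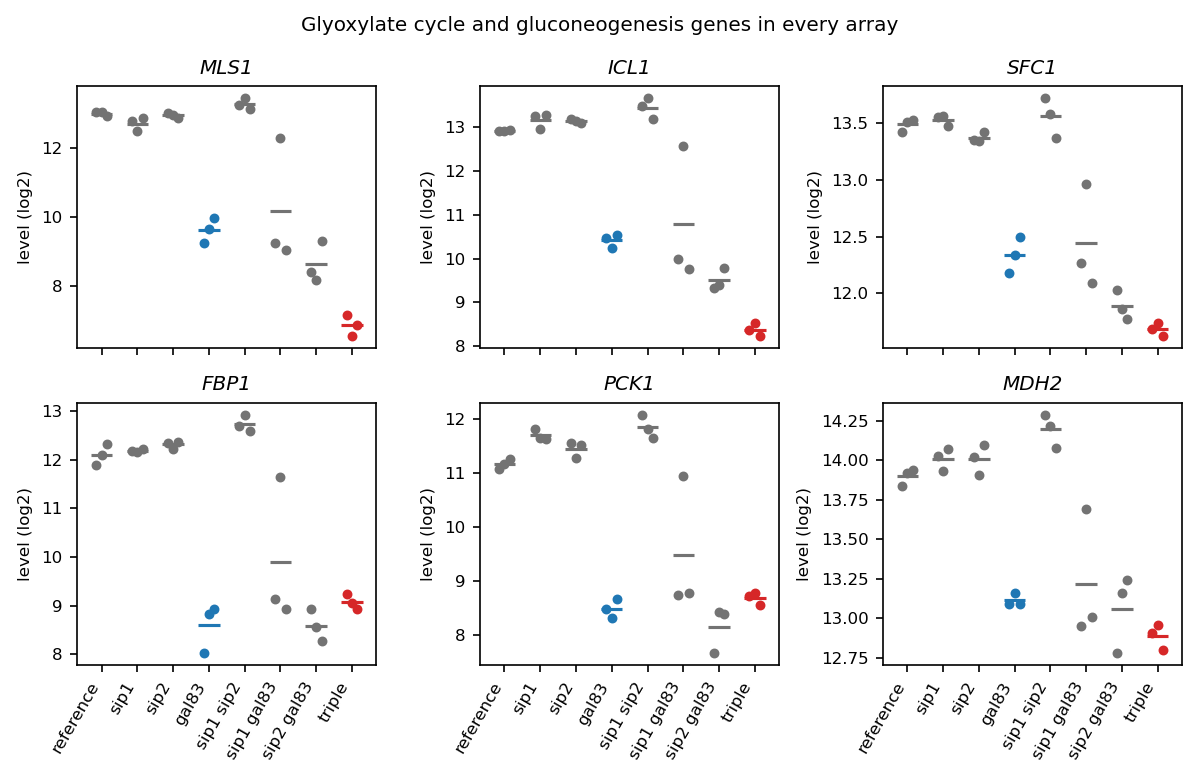
Log2 level of MLS1, ICL1, SFC1, FBP1, PCK1 and MDH2 in each of the 24 arrays by strain, each point an array and each line a strain mean. The triple arrays of MLS1 (6.55 to 7.16) and ICL1 (8.22 to 8.52) lie below the gal83 arrays, while the FBP1 (8.92 to 9.24) and PCK1 (8.56 to 8.77) triple arrays overlap the gal83 arrays.

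Their regulators moved in part. NRG1, a repressor gene of glucose-repressed genes, fell by 0.78 ± 0.086 (adjusted p = 1.93e-06), to a triple mean of 11.71 beside a reference mean of 11.77. ADR1, an activator gene, fell by 0.46 ± 0.16 (adjusted p = 0.029), a call lost without gal83 replicate 1 or 3 or triple replicate 2 or 3 (adjusted p = 0.0556, 0.128, 0.0898 and 0.0632). CAT8 differed by -0.03 (adjusted p = 0.678), MIG1 by -0.12 (adjusted p = 0.384) and SIP4 by 0.50 ± 0.28 (adjusted p = 0.16). The SIP4 difference passed without the 3 doubted arrays (adjusted p = 0.0429). Upstream of the kinase, TOS3, encoding a Snf1-activating kinase, stood at 8.27, 7.98 and 8.24 in gal83 and at 10.28, 10.44 and 10.09 in the triple arrays, a rise of 2.11 ± 0.14 (adjusted p = 3.48e-09). STD1, a regulator of glucose sensing, rose by 1.41 ± 0.21 (adjusted p = 3.97e-05), to a triple mean of 8.60 beside a reference mean of 8.73.

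Use of acetate, lactate and carnitine followed a mixed course, with 4 of 19 genes higher and 6 lower, beside 26.3% and 15.9% of all genes. YAT2, a carnitine acetyltransferase gene, stood at 12.06, 12.09 and 12.21 in gal83 and at 10.57, 10.54 and 10.45 in the triple arrays, below all other arrays (-1.60 ± 0.099, adjusted p = 2.07e-09). CYB2, lactate dehydrogenase, fell by 0.69 and ATO3, an ammonium and acetate transporter family gene, by 0.56. The alcohol dehydrogenase gene ADH2 fell by 0.23 ± 0.042 (adjusted p = 0.000305). ACS1, acetyl-CoA synthetase, differed by 0.03 (adjusted p = 0.832), a sign that turned when array medians were subtracted, and JEN1, the lactate permease, by -0.10 (adjusted p = 0.212).

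The hexose transporter genes HXT1, HXT3 and HXT4 rose. HXT3, a transporter gene of low affinity, stood at 9.86, 10.17 and 9.81 in gal83 and at 11.91, 11.91 and 12.10 in the triple arrays, a rise of 2.03 ± 0.17 or 4.08-fold (adjusted p = 9.83e-08). HXT4 went from 10.36, 10.90 and 10.63 to 12.68, 12.53 and 12.40, a rise of 1.91 ± 0.17 (adjusted p = 1.78e-07). HXT1 rose by 2.24 ± 0.19 (adjusted p = 1.19e-07) from 2.22 to 3.66, 4.81 and 4.89, close to the floor. The triple arrays of HXT3 and HXT4 lay above all other arrays, the reference included. Of 20 measured genes of hexose transport and phosphorylation 4 rose and 2 fell, with a median of -0.0043, so the list as a whole did not stand above the 26.3% of all genes that rose. The glucose sensor gene RGT2 fell by 0.53, which did not pass without gal83 replicate 2 or triple replicate 2 (adjusted p = 0.056 and 0.0578). HXT2 differed by 0.20 (adjusted p = 0.0563) and HXT5 by -0.08 (adjusted p = 0.553). HXT2 passed after quantile normalization and with the compared groups alone (adjusted p = 0.0309 and 0.0133), and HXT5 with array weights (adjusted p = 0.0423).

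Several genes of sucrose and maltose use fell. Of 10 measured genes of sucrose, maltose and isomaltose use 6 fell and 0 rose, with a median of -0.442. Among all genes 15.9% fell and 26.3% rose. MAL11, a maltose transporter gene, stood at 13.52, 13.43 and 12.90 in gal83 and at 11.34, 11.43 and 11.35 in the triple arrays (-1.91 ± 0.15, adjusted p = 4.68e-08). SUC2, invertase, went from 14.06, 14.01 and 14.16 to 13.58, 13.63 and 13.67 (-0.45 ± 0.15, adjusted p = 0.0216), a call lost without gal83 replicate 3 or triple replicate 1 or 2 (adjusted p = 0.0691, 0.0615 and 0.0518). MAL32 fell by 0.56, on a probe set shared with a near-identical gene. Galactose genes did not follow: of 8 measured 1 rose and 2 fell, with a median of -0.004, and the rise of the galactokinase gene GAL1 (0.60, adjusted p = 0.000922) was 0.01 after quantile normalization (adjusted p = 0.946).

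Stress genes fell as a list. The factors Msn2 and Msn4 turn on a common set of genes in many stresses and at slow growth. Of 33 such genes 25 fell, 0 rose and 8 did not pass, with a median of -0.456. Of the 25, 15 stood below all other 21 arrays, against 3.52% of all genes and 20.6% of all genes that fell. The mean level of the list was 13.04 to 13.16 in the triple arrays and 13.75, 13.74 and 13.47 in the gal83 arrays. The other strains ranged from 13.27 to 13.76 and so lay above the triple arrays. RTN2, a reticulon gene, went from 13.29, 12.99 and 12.60 to 11.39, 11.36 and 11.17 (-1.65 ± 0.16, adjusted p = 4.27e-07). PAI3, a proteinase A inhibitor gene, fell by 1.5 ± 0.20 (adjusted p = 1.91e-05). The catalase gene CTT1 went from 11.69, 11.50 and 11.13 to 10.17, 10.22 and 10.0 (-1.31 ± 0.19, adjusted p = 3.58e-05), and GRE1, a hydrophilin gene, fell by 1.23 ± 0.13 (adjusted p = 1.05e-06).

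Storage carbohydrate genes fell with them. Of 15 genes of glycogen metabolism 10 fell and 0 rose, with a median of -0.368, where 15.9% of all genes fell and 26.3% rose. GAC1, which brings a phosphatase to glycogen synthase, stood at 11.18, 11.22 and 11.11 in gal83 and at 7.28, 7.81 and 7.84 in the triple arrays (-3.52 ± 0.57, adjusted p = 0.000106). GPH1, glycogen phosphorylase, went from 13.53, 13.41 and 13.48 to 12.82, 12.74 and 12.65 (-0.73 ± 0.070, adjusted p = 3.95e-07). So genes of making and of breaking glycogen both fell, as did GLG1, the primer protein gene, by 0.86 and GDB1, the debranching enzyme gene, by 0.67. Of 7 trehalose genes 3 fell, TPS2 by 0.59, ATH1 by 0.58 and TPS1 by 0.25, and TPS3 rose by 0.14, a rise that did not pass with array medians subtracted (adjusted p = 0.134) or without gal83 replicate 2 or 3 or triple replicate 1 or 2 (adjusted p = 0.0764, 0.114, 0.0939 and 0.0665). Of 36 autophagy genes 10 fell, led by the kinase gene ATG1 at -1.18 ± 0.16, and 1 rose. The plot of list means places the stress list beside the early meiosis, sporulation, mating type and iron lists in every array.

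**Figure D4:**
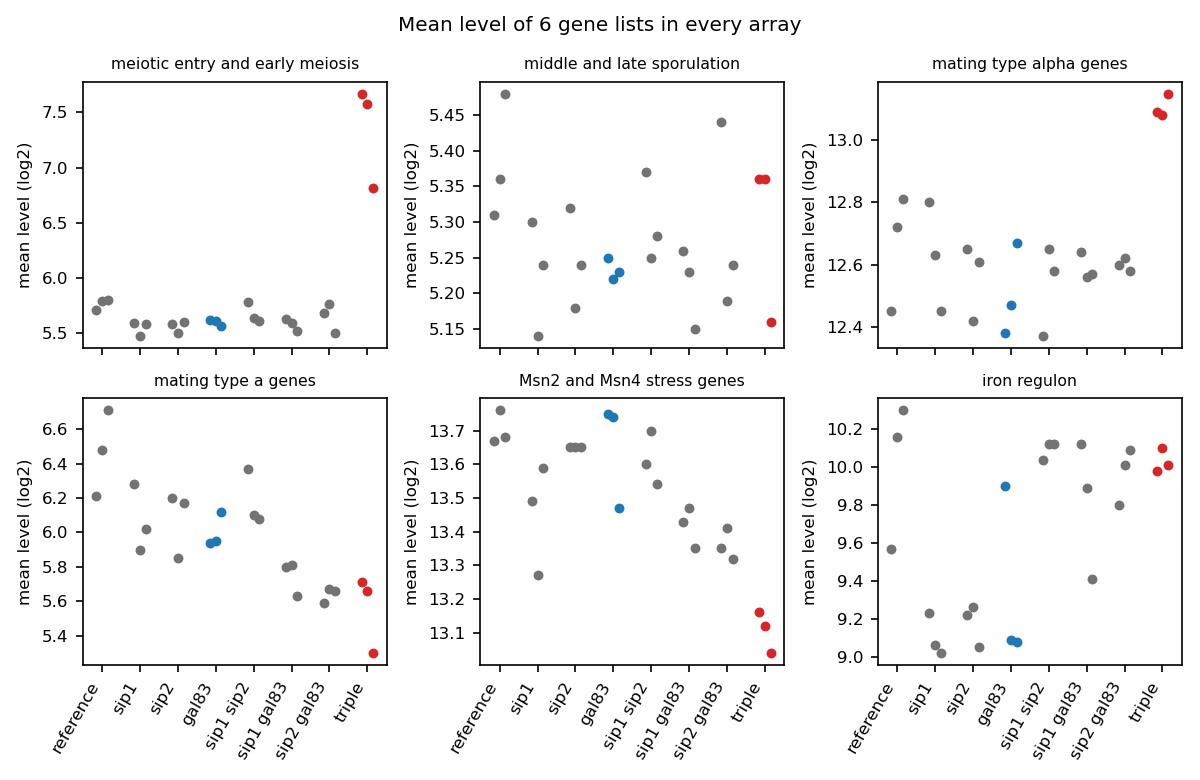
Mean log2 level over the measured members of 6 gene lists in each of the 24 arrays, grouped by strain, each point an array. The triple arrays stand above all others for early meiosis (6.81 to 7.67) and below all others for the Msn2 and Msn4 stress genes (13.04 to 13.16), while the first gal83 array stands apart from the other 2 for the iron regulon (9.90 against 9.09 and 9.08).

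Amino acid and sulfur genes rose. Of 51 measured genes of amino acid synthesis under the activator Gcn4 25 rose and 2 fell, with a median of 0.181. Among all genes 26.3% rose and 15.9% fell. Of the 25, 17 stood above the other 21 arrays, against 5.78% of all genes and 21.3% of all genes that rose. With array medians subtracted 19 rose and 3 fell. LEU9, of leucine synthesis, rose by 0.83 ± 0.14 (adjusted p = 0.000128), ARO2, chorismate synthase, by 0.70, SER3 of serine synthesis by 0.64 and TRP3 of tryptophan synthesis by 0.58. Of 30 genes of sulfate assimilation and methionine 16 rose and 4 fell (11 and 4 with array medians subtracted). MUP1, the methionine permease gene, went from 10.00, 10.15 and 10.47 to 11.54, 11.65 and 11.46, a rise of 1.35 ± 0.14 (adjusted p = 9.82e-07).

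Permeases and nitrogen genes were split by gene. AGP1, a broad amino acid permease gene, stood at 9.21, 9.50 and 9.32 in gal83 and at 11.93, 12.11 and 11.67 in the triple arrays, a rise of 2.56 ± 0.14 (adjusted p = 3.84e-10). DIP5, a permease gene for acidic amino acids, rose by 2.92 ± 0.53 (adjusted p = 0.000268), with the sip2 gal83 arrays as high, at 5.82 to 7.88. UGA4, the GABA permease gene, went from 7.10, 7.44 and 7.44 to 10.34, 10.29 and 9.73, a rise of 2.79 ± 0.34 (adjusted p = 5.02e-06), and was level in both double strains. CAR1, arginase, rose by 2.09 ± 0.14 (adjusted p = 6.96e-09). Of 31 genes of nitrogen source use 7 rose and 11 fell, beside 26.3% and 15.9% of all genes. Among those that fell was the proline permease gene PUT4, by 1.31.

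The phosphate and iron regulons also held more genes that rose, beside 26.3% higher and 15.9% lower over all genes. PHO84, the high-affinity phosphate transporter gene, went from 7.46, 7.18 and 6.31 to 10.67, 10.65 and 10.00, a rise of 3.45 ± 0.69 (adjusted p = 0.000679), in a list where 10 of 24 rose and 1 fell. PHO5, the secreted acid phosphatase, stood at 8.29, 8.10 and 8.20 against 8.30, 8.65 and 8.36 and differed by 0.24 ± 0.47 (adjusted p = 0.739), which passed without the 3 doubted arrays (adjusted p = 0.0221). Of 32 iron genes 18 rose and 1 fell. Of the 18, 17 had a gal83 mean below the reference. For 14 of them the triple arrays overlapped the reference range, against 35.1% of all genes that rose. The gal83 arrays also disagreed among themselves. SIT1, a siderophore transporter gene, stood at 11.22, 7.85 and 7.30 in gal83 and at 11.16, 11.43 and 11.59 in the triple arrays, so the groups overlapped, with a difference of 2.60 ± 0.85 (adjusted p = 0.0202). FIT2, a cell wall mannoprotein gene of siderophore uptake, showed the same split in gal83, at 13.84, 11.01 and 10.32. Fitted on the 6 arrays alone, 10 iron genes rose and 1 fell, and SIT1 and FIT2 did not pass (adjusted p = 0.104 and 0.123). Leaving out one array at a time gave 10 to 21 iron genes that rose. SIT1 did not pass without gal83 replicate 2 or 3 or triple replicate 2 or 3 (adjusted p = 0.0888, 0.113, 0.0507 and 0.0554), nor FIT2 without any one array but gal83 replicate 1 (adjusted p up to 0.163).

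Lipid and energy genes moved in smaller steps, beside 26.3% higher and 15.9% lower over all genes. Of 29 genes of ergosterol synthesis and its regulators 13 rose and 1 fell, led by ERG4 at 0.85. INO1, of inositol synthesis, rose by 0.95 ± 0.11 (adjusted p = 5.48e-06), from 13.67, 13.68 and 13.95 to 14.72, 14.73 and 14.69. Fatty acid synthesis held 7 genes of 14 that fell and 2 that rose. ACC1, acetyl-CoA carboxylase, fell by 0.27 ± 0.064 (adjusted p = 0.0028). Of 17 genes of peroxisomal β-oxidation 6 fell, among them the catalase gene CTA1 by 0.70 (not without gal83 replicate 3, adjusted p = 0.0934) and the thiolase gene POT1 by 0.60, and 1 rose. Of 27 genes of glycolysis and the pyruvate branch 13 rose and 1 fell, the latter PDC6, a minor pyruvate decarboxylase, by 1.09. The respiratory chain held 12 genes of 36 that fell, led by CYC7, the hypoxic cytochrome c, at -1.39 ± 0.14, and 5 that rose. With array medians subtracted, 14 respiratory genes fell and 2 rose. The same setting gave 10 higher and 2 lower for glycolysis, and 11 and 2 for ergosterol synthesis.

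Ribosomal protein genes were counted for each compartment, and the lists were not compared by a test. Of 70 mitochondrial ribosomal protein genes 27 rose and 1 fell (22 and 3 with array medians subtracted), led by MRPL4 at 0.82 ± 0.11, and 25 of the 27 had a gal83 mean below the reference. Among the 127 genes for cytosolic ribosomal proteins, 12 were higher and 27 lower, a balance that depends on the scaling, with 4 and 36 after array medians were subtracted and 20 and 22 after quantile normalization. Of 26 genes of the PAU, DAN and TIR cell wall families 7 rose and 4 fell, close to the 26.3% and 15.9% of all genes. CWP1, a mannoprotein gene, rose by 2.02 ± 0.11 and TIR1 by 1.78, while TIR4 fell by 1.77. DAN1 differed by -0.08 (adjusted p = 0.866) and its regulator gene UPC2 by -0.41 (adjusted p = 0.0611). The UPC2 difference passed with array medians subtracted and after quantile normalization (adjusted p = 0.0363 and 0.0411).

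Where the gal83 strain itself stood can be read against the reference and against the sip1 and sip2 strains, whose arrays take no part in the comparison. The 1431 genes that rose had a median of -0.266 in gal83 minus reference and 0.138 in triple minus reference, against -0.0972 and -0.0391 over all genes. Being chosen for triple above gal83 fixes part of these values. In the mean of the sip1 and sip2 strains minus reference they had a median of -0.27, against -0.105 over all genes, and 88.7% of them were below 0 there, against 65% of all genes. For the 869 genes that fell these medians were 0.115, -0.308 and 0.0885, and 36.6% were below 0. Most genes that were higher in the triple than in the gal83 strain were thus below the reference in the sip1 and sip2 strains. Shares below 0 depend in part on scaling and were not computed with array medians subtracted. Those medians were 11.068 to 11.072 in the reference, 10.945 to 10.981 in sip1 and 10.904 to 10.956 in sip2. Across the 5449 genes, the triple minus gal83 change and the change in the sip1 and sip2 strains correlated at r = -0.322 and rho = -0.496, with no array in common, as a description only. By contrast 305 of the genes that rose (21.3%) lay above all other 21 arrays, against 5.78% of all genes. Of those that fell 179 (20.6%) lay below them all, against 3.52% of all genes. Among changes over 1 these were 100 of 163 and 36 of 92. Being chosen for a difference from gal83 fixes part of these shares.

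**Figure D5:**
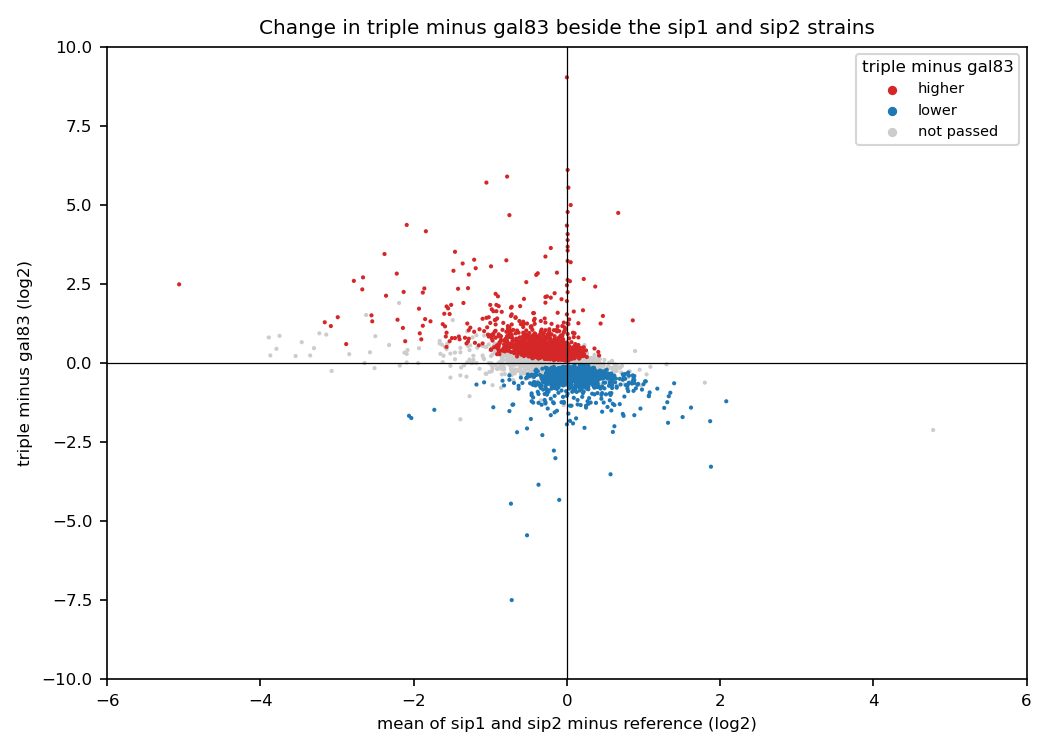
Change in the triple strain against the gal83 strain (vertical, log2) beside the mean of the sip1 and sip2 strains minus the reference (horizontal, log2) for 5446 genes, with the deleted genes left out; red points rose and blue points fell in triple minus gal83. The red points lie mostly left of 0 on the horizontal axis, and SLZ1, the top point at 9.04, lies at 0.00 on it.

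The same loss was then examined in cells that keep GAL83. In sip1 sip2 minus reference, 14 genes were called (0.257%), 6 higher and 8 lower, and 506 had an unadjusted p under 0.05 by limma. Without the 3 doubted arrays, of which sip1 sip2 replicate 3 is one, 41 were called. None of the 29 early meiotic and 33 stress genes was among the 14, while SIP1 and SIP2 themselves were. SLZ1 differed by 0.00 there, HXT3 by 0.05 and YAT2 by 0.14. CWP1 rose by 0.70 (adjusted p = 0.00655). The test of the difference, triple minus gal83 less sip1 sip2 minus reference, called 1566 genes (28.7%), 1052 higher (19.3%) and 514 lower (9.43%), or 706 and 705 with array medians subtracted. Of the 29 early meiotic genes 17 were higher and 2 lower in this test, and of the 33 stress genes 1 was higher and 18 lower. For the iron regulon 3 of 32 were higher.

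Cells that had lost one further β-subunit beside GAL83 were read the same way. These comparisons share the gal83 arrays with the main one, so they are given side by side only. Each double strain also holds 1 of the doubted arrays. The lowest values of the sip2 gal83 arrays were 1.664 to 1.674, below those of every other strain (1.776 or more). What this offset adds to the calls was not tested. In sip1 gal83 minus gal83, 1954 genes were called (35.9%), and in sip2 gal83 minus gal83 1637 (30%), or 223 when only these strains were fitted. Without the 3 doubted arrays 2156 and 1615 were called. Of all genes 25.3% were higher and 10.6% lower in the first, and 17.8% higher and 12.2% lower in the second. Both balances turned with the scaling. With array medians subtracted, 894 genes were higher and 1247 lower in the first, and 748 and 819 in the second. Of the 29 early meiotic genes 1 was higher and 2 lower in the first and 2 higher and 3 lower in the second, against 17 higher and 2 lower in the triple strain. Of the 33 stress genes 16 fell in the first and 13 in the second, against 25. Of the 15 glycogen genes 6 and 8 fell, against 10. FAT3 stood at -1.14 and -1.52 in the double strains and -3.01 in the triple strain, and YAT2 at 0.02, -0.67 and -1.60.

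The interaction term, triple minus both double strains plus gal83, tests whether the joint loss differed from the sum of the 2 single losses. It was called for 854 genes (15.7%), 308 above the sum (5.65%) and 546 below it (10%), or 510 and 317 with array medians subtracted. Of the early meiotic genes 16 were above the sum and 1 below. REC102 exceeded it by 4.32, SAE3 by 4.92 and PHO92 by 4.98. IME2 in the sip2 gal83 arrays read 6.46, 7.03 and 5.38, and REC104 read 6.53, 5.91 and 4.45. For REC104 all 3 lay between the gal83 and the triple arrays, while for IME2 the third array was at the gal83 level. UGA4 exceeded the sum by 3.0 ± 0.48 (adjusted p = 0.000506). Of the stress genes 1 was above and 1 below. ANS1 lay at -5.36 from the sum, and NUT2, encoding a Mediator subunit, at -3.03, with 5.89, 5.30 and 4.49 in sip1 gal83, 3.60, 4.38 and 4.63 in sip2 gal83 and 3.28, 3.66 and 3.07 in the triple arrays against 3.06 in each gal83 array. SIP4 exceeded the sum by 2.30 ± 0.40 (adjusted p = 0.0009), with the double strains at 8.59 to 9.89, gal83 at 9.72 to 10.23 and the triple strain at 10.10 to 10.70. The double strains lay below the triple strain and overlapped gal83.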

How the data were processed

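RNA of 24 cultures, 3 biological replicates for each of 8 strains, was measured on Affymetrix arrays. The deposited values are log2 intensities per probe set. Per the submitters' processing notes they were made with RMA in affy, with no version named, and the array's genome build was not given in the sources used here. Of 5716 probe sets 5498 name 1 gene and 218 none. For genes with several probe sets the one with the highest mean was kept (49 left out), which gave 5449 genes, 112 of them on probe sets shared between near-identical genes. No filter on low values was applied.

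Groups came from the sample titles. With limma 3.58.1 (R 4.3.3), 1 linear model with 8 strain means was fitted (16 residual degrees of freedom). Tests were two-sided, and the threshold was 0.05 after Benjamini-Hochberg adjustment over all genes. The labels call the replicates biological without saying how cultures were separated, so p-values measure the spread between these samples. The genes named are the β-subunits and partners, the 12 genes or fewer per direction with the greatest changes and all triple arrays beyond all gal83 arrays, 8 or fewer per direction in the difference and interaction tests, 4 or fewer called members of each of 46 lists, and a fixed panel. Members, lists and the rule were chosen with earlier results of these data known. The alternatives were subtraction of array medians, quantile normalization, leaving out genes with a mean under 9.746, raising lower values to 9.746, use of every probe set, a trended and robust eBayes, weighted arrays, a replicate block, a fit on only the strains compared, and leaving out 3 doubted arrays or each replicate. The pipeline was tested on simulated data. Same-numbered gal83 and triple arrays did not deviate together. Sequences were not used here.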

Additional observations from a re-analysis of the deposited data

Results flagged for a closer look

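The effect of losing SIP1 and SIP2 differed between cells without and with GAL83, by the test of the difference itself in limma, for these genes with the largest values. The difference was 9.04 for SLZ1, 6.4 for IRC7, 6.1 for COS12, 6.0 for REC104, 5.55 for RNP1, 4.99 for PHO92, 4.98 for QDR2 and 4.78 for BAP3, each higher without GAL83. It was -5.36 for ANS1, -4.03 for BIO5, -3.88 for IMA5 and -3.6 for IZH4. It was -3.26 for GAC1, -3.04 for MLS1, -2.94 for FAT3 and -2.73 for YAP6.

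In cells without GAL83, the effect of losing SIP1 also differed between cells with and without SIP2, by the interaction term. Values above the sum of the single losses were 5.6 for PHO5, 5.55 for RNP1, 5.39 for SLZ1, 4.98 for PHO92, 4.92 for SAE3, 4.32 for REC102, 4.11 for BAP3 and 4.06 for SRT1. For PHO5 the sip1 gal83 arrays set this value, at 2.07, 4.92 and 2.08, since PHO5 in the triple strain was near its gal83 level. Replicate 2 of sip1 gal83 is a doubted array. Values below the sum were -5.36 for ANS1, -3.03 for NUT2, -2.98 for RTA1, -2.92 for the epsin-like gene ENT4 and -2.54 for VAM7, encoding a vacuolar SNARE. Further ones were -2.19 for IMA5, -2.15 for the kinetochore gene NSL1 and -2.01 for the splicing gene ECM2. VAM7 and NSL1 rose in triple minus gal83 itself, by 1.32 ± 0.19 and 1.51 ± 0.30.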

How the results depend on the processing

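In triple minus gal83 the 2300 calls were 2298 with array medians subtracted, 2383 after quantile normalization and 2787 without the 3 doubted arrays. They were 3254 with array weights, 2543 with the compared groups alone, 1840 with low values raised and 1914 to 2099 without single replicates. With the genes of lowest mean left out 1830 were called. In sip1 sip2 minus reference the 14 calls were 5 with the genes of lowest mean left out, 160 with array weights, 41 without the doubted arrays, 5 with the compared groups alone and 12 to 20 without single replicates. In the difference, 1566 calls became 2598 with array weights and 1173 to 1548 without single replicates. They were 2012 with the compared groups alone and 2070 without the doubted arrays. In sip1 gal83 minus gal83 the calls ranged over 1463 to 1756 without single replicates, and in sip2 gal83 minus gal83 over 1204 to 1774, with 223 for the compared groups alone. In the interaction, 854 calls became 2122 with array weights, 567 with the compared groups alone and 590 to 1158 without single replicates. Without the doubted arrays they were 1039. The cause was not tested. Fits on fewer arrays have fewer degrees of freedom, yet some of them called more genes and some fewer. The 17 early meiotic genes that rose were 15 with the compared groups alone and 17 without any one replicate, but 3 when low values were raised to 9.746, which removes changes below that level by construction. Raising low values ended the calls of 41 of 200 named results, and the compared groups alone ended 10. Signs turned for ACS1 (-0.01 with medians subtracted), DAN1 (0.1 with array weights, -0.25 to 0.16 without single replicates), CAT8 (-0.06 to 0.01 without single replicates) and, with low values raised, the differences of ANS1 (0.08) and IMA5 (0.44) and the interaction of IMA5 (0.1). Replicate numbers did not pair the arrays (correlations of deviations 0.027, -0.028 and 0.106 for same-numbered arrays), and triple replicate 1 correlated best with gal83 replicate 2, at 0.118. The replicate block gave 2324 calls in triple minus gal83 and changed none of the 200 named calls.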
